A study of Homo sapiens with 96 samples.

Results

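Total RNA of U2-OS cells carrying siRNA against Bmal1 was compared between the middle and the 2 ends of a circadian day. The mid-day group held the libraries of CT08, CT10, CT12 and CT14 and the edge group those of CT00, CT02, CT20 and CT22, where CT is circadian time in hours. With 2 replicates per time, 8 libraries stood against 8, so 16 of the 96 libraries of the series entered the comparison. The libraries were chosen by their labelled time only. Earlier results of these data were known when the windows, the gene lists and the tests were chosen. Each group has a mean time of CT11, so a change that is linear in time cancels between them. The same windows were read in knockdown ribosome footprints and in wild-type total RNA.

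U2-OS is a human osteosarcoma line, used here as 1 clone with a luciferase gene driven by the Per2 promoter. All groups were synchronised with dexamethasone at 0.1 µM, a glucocorticoid that resets the clock, kept with 0.1 mM luciferin, and sampled every 2 h from 24.5 h later, with cycloheximide at 100 µg/mL before lysis. Knockdown plates were seeded with 560000 cells and transfected with 120 pmol of a pool of 5 siRNAs, and no control siRNA is given. Wild-type plates were seeded with more cells and received no siRNA, so the knockdown, transfection and seeding density cannot be told apart. Nothing states that the 2 replicates were separate cultures, so p-values measure the spread between these libraries, which may be technical. The 8 libraries of a window are 4 times by 2 replicates of 1 time series, and the tests take them as independent.

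As background, cells enter mitosis when cyclin B binds the kinase CDK1. Anaphase starts when the ubiquitin ligase APC/C with its activator CDC20 destroys cyclin B and securin (PTTG1). The mRNAs of these genes build up through G2 and M phase, driven by the MuvB complex with B-MYB and FOXM1, which acts at the CHR element of their promoters, and by NF-Y, which binds CCAAT boxes. Replication genes and histones come earlier, in late G1 and S phase. BMAL1, encoded by ARNTL, pairs with CLOCK to switch on the Per and Cry genes, whose products repress it.

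The promoters of 6 genes that rose are shown as examples, and other large rises are left out. They belong to the B-type cyclins CCNB1 and CCNB2, securin (PTTG1), CDC20, the centrosome kinase NEK2 and the nuclear envelope protein SUN2. The 150 bases before the start site are taken from RefSeq (GRCh38.p14), 5′ to 3′ on the gene's strand: chr5:69167000-69167149 (plus strand), chr15:59104996-59105145 (plus), chr5:160421705-160421854 (plus), chr1:43358831-43358980 (plus), chr1:211675622-211675771 (minus) and chr22:38755999-38756148 (minus). Capitals mark CCAAT boxes (CCAAT or its complement ATTGG) and the CHR element (TTTGAA or its complement TTCAAA).
CCNB1: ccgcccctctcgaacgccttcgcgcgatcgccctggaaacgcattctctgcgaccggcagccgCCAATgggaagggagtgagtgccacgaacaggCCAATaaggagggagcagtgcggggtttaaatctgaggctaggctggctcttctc
CCNB2: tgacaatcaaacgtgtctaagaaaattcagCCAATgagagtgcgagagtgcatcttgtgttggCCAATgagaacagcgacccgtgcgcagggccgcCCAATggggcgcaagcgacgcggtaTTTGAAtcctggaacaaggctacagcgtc
PTTG1: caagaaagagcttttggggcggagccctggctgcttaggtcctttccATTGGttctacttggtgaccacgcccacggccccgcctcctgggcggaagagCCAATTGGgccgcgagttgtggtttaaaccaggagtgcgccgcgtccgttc
CDC20: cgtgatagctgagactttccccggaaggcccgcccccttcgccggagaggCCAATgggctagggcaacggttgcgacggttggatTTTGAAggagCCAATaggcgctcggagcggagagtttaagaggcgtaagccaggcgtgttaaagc
NEK2: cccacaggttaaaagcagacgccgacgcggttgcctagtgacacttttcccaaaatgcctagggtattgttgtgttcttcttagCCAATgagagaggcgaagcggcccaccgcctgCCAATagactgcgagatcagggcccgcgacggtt
SUN2: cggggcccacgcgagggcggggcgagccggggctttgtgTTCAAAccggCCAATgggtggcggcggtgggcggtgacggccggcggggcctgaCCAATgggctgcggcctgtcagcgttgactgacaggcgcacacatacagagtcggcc
All 6 hold at least 2 CCAAT matches, and those of PTTG1 nearest the start overlap on opposite strands. Neighbouring CCAAT boxes start 32 bases apart in CCNB1 and NEK2 and 33 and 33 bases apart in CCNB2. They start 45 bases apart in CDC20 and 44 in SUN2, and the ATTGG boxes of PTTG1 start 55 apart. A CHR match is present in CCNB2, CDC20 and SUN2. Not all genes that rose are alike: PLK1 and CDKN3, not shown, hold 1 CCAAT match each, and the boxes of KIF20A start 27 bases apart. A match is a string of letters in this window and not a measured binding site.

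Edge libraries held 13589361 to 19288020 reads and 7 of the 8 mid-day libraries 14157079 to 18085559 reads. The CT14 library of replicate 2 had 2657049 reads and is called the shallow library here. Outside the windows, the CT18 library of replicate 2, which enters the time courses, had 2564263 reads. Each window library was set against the mean of the others of its group, over 4980 genes of 50 CPM (counts per 1000000 reads) or more. At mid-day the shallow CT14 library differed by over 1.5-fold for 112 genes. The CT08 library of replicate 1 did so for 25 genes, against 0 to 2 for the other 6 mid-day libraries. Edge libraries did so for 7 to 49 genes against the rest of their own group. The main counts are therefore also given without the shallow library and without the CT08 libraries. The osteoblast markers SPARC (996 to 1341 CPM), COL1A1 (130 to 322), SPP1, RUNX2 and ALPL were present, while COL1A2, which osteoblasts make in bulk, had at most 4 reads in a library. The 4 blood markers summed to 9.95 to 17.6 CPM at mid-day and 10.3 to 17.2 CPM at the edges, nearly all from CD68, with CD3E at 0 reads in all 16 libraries. The 4 epithelial markers summed to 5.59 to 10.8 and 5.08 to 7.77 CPM, with KRT5 at 0 in 15, and 3 neuronal markers to 5.16 to 9.72 and 5.14 to 6.49 CPM, with GFAP at 0 in 9. CPM are scaled over all 48 total RNA libraries of the series. They do not correct for gene length and are not compared between genes.

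ARNTL, the siRNA target, stayed low throughout: 3.36 to 5.17 CPM at mid-day (median 4.89) and 4.38 to 5.68 CPM at the edges (median 4.86). These values overlap, and the difference was -0.10 ± 0.10 (log2 ± SE, limma adjusted p = 0.708). In wild-type cells ARNTL was 14.3 to 31.9 CPM at mid-day and 33.4 to 47.9 CPM at the edges, without overlap, and lower at mid-day by 0.90 (log2 -0.90 ± 0.15, limma adjusted p = 0.0209). All knockdown libraries lay under all wild-type libraries.

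CCNB1, CCNB2 and PTTG1, which mark the mitotic wave, were each about 1.4 times higher at mid-day in knockdown cells. CCNB1 ran from 308 to 404 CPM at mid-day (median 370) and from 219 to 321 CPM at the edges (median 254). Of the 8 mid-day libraries, 7 lay above the highest edge library, and the exception, at 308 CPM, was the shallow CT14 library. Its fold was 1.42 (log2 0.51 ± 0.07, n = 8 against 8, limma adjusted p = 0.000868). CCNB2 ran from 103 to 125 CPM (median 118) against 71.6 to 96.7 CPM (median 79.1), with no overlap, a fold of 1.44 (log2 0.53 ± 0.06, limma adjusted p = 0.000113). PTTG1 ran from 210 to 244 CPM (median 226) against 144 to 187 CPM (median 158), also with no overlap, a fold of 1.42 (log2 0.51 ± 0.05, limma adjusted p = 1.28e-05). The log2 difference was 0.50 and 0.50 in replicates 1 and 2 for CCNB1, 0.51 and 0.54 for CCNB2 and 0.47 and 0.55 for PTTG1. Over 22 other settings it stayed between 0.43 and 0.64 for CCNB1, 0.47 and 0.60 for CCNB2 and 0.47 and 0.55 for PTTG1. The first 2 were past the threshold in 19 settings and PTTG1 in 22. The 3 settings that ended the calls of both cyclins left out replicate 1 (adjusted p = 0.149 for CCNB1 and 0.0617 for CCNB2), left out replicate 2 (0.234 and 0.176) or averaged the replicates into 4 time means against 4 (0.193 and 0.0786), all in limma.

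The time course shows the shape behind these differences. Time means of CCNB1 went from 270 CPM at CT00 to 401 CPM at CT12 and 224 CPM at CT22. CCNB2 was highest at CT12 (125 CPM) and lowest at CT20 (71.7 CPM), and PTTG1 was highest at CT12 (240 CPM) and lowest at CT22 (150 CPM). The ends of the day were unequal: CT00 and CT02 averaged 292 CPM for CCNB1, 89.7 for CCNB2 and 168 for PTTG1, and CT20 and CT22 averaged 232, 73.5 and 152 CPM. The day before and the day after were not sampled, so a wave and a cycle cannot be told apart.

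**Figure D1:**
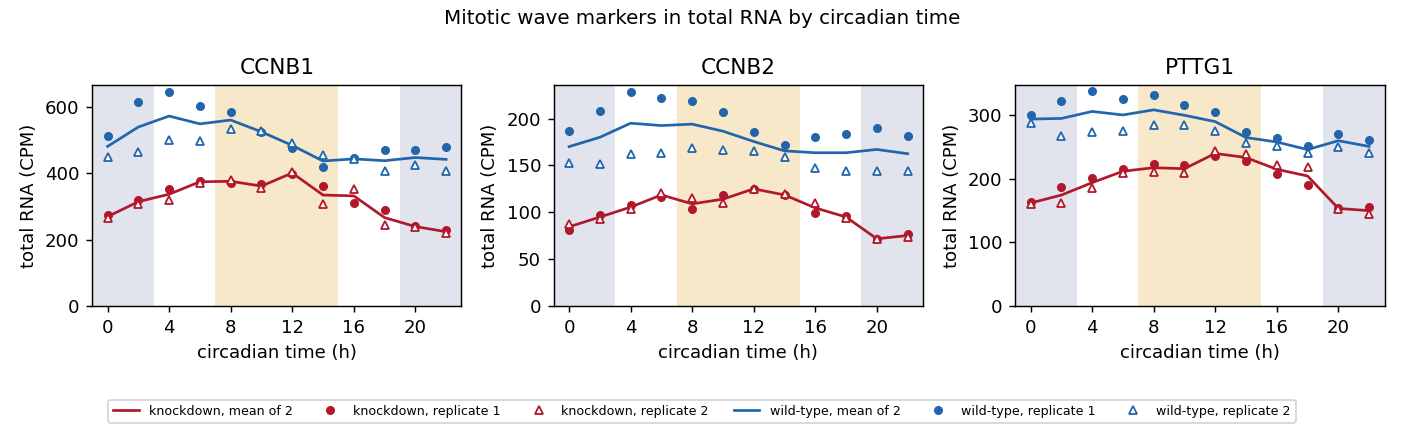
Total RNA (CPM) of CCNB1, CCNB2 and PTTG1 at each circadian time (h), in knockdown (red) and wild-type cells (blue). Filled circles are replicate 1, open triangles replicate 2 and lines their mean, with the mid-day window in orange and the edges in grey. Knockdown values are highest at CT12 in all 3 panels and lowest at CT20 or CT22.

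Across all genes, 208 of 13096 tested passed the threshold (limma, adjusted p under 0.05), 122 higher at mid-day (0.932% of tested genes) and 86 lower (0.657%). The median difference of all genes was 0.004 (log2). The 122 had a median of 0.39 and 18 of them were at least 1.5-fold higher, while the 86 had a median of -0.27 and 4 were at least 1.5-fold lower. In 32 of the 122 every mid-day library lay above every edge library, which held for 34 genes (0.260%) in all. Without the shallow library 202 genes passed, 97 higher and 105 lower, so the share of rises went from 58.7% to 48.0%, and with DESeq2, which called 413 genes, it was 46.5%. The tests take 4 times by 2 replicates as 8 independent libraries: with 4 time means against 4 the count was 5, with a linear drift term 644 and with the spread taken between replicates of a time only 893. It was 132 with no low-count filter and 65 with narrow windows (CT10 and CT12 against CT00 and CT22). The count changed when 1 time was left out: it was 190 without CT08, but 75 without CT00, 369 without CT02, 97 without CT10, 37 without CT12, 114 without CT14 and 64 without CT20. Leaving out 1 time also makes the mean times of the groups unequal, so a linear change no longer cancels there. The count was 12 without replicate 1 and 2 without replicate 2.

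Of 100 tested genes in 6 lists of the mitotic programme, 37 rose and 0 fell, against 0.932% and 0.657% of all genes, and their median was 0.37 against 0.004. The difference was positive in 99 of the 100, and MIS12, a kinetochore protein, was at -0.06 ± 0.06. In bulk RNA, more cells in mitosis and more RNA per cell cannot be told apart. Fewer passed without the shallow library (22), without CT08 (20), CT10 (21), CT12 (13), CT14 (18), CT20 (15) or CT22 (21), with edgeR (26), with no low-count filter (24), with narrow windows (17) and with replicates averaged into 4 time means against 4 (1). More passed without CT02 (71), with DESeq2 (44), with a linear drift term (84) and with the spread taken between replicates of a time only (86). It was 31 without CT00, 3 without replicate 1 and 1 without replicate 2, and the median lay between 0.25 and 0.49 in all of these settings.

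Among mitotic cyclins and kinases, 11 of 21 rose (median 0.44). NEK2, which separates the centrosomes, ran from 75.1 to 99.0 CPM at mid-day (median 84.4) and from 43.9 to 70.7 CPM at the edges (median 52.5), with no overlap. It rose 1.58-fold (log2 0.66 ± 0.09, limma adjusted p = 0.000413). PLK1, the polo kinase of mitotic entry, was at 55.4 to 78.5 CPM (median 63.4) against 34.5 to 53.9 (median 43.0), again apart, and rose 1.51-fold (limma adjusted p = 0.0017). CDC25B, a phosphatase that activates CDK1, rose 1.36-fold, with 84.8 CPM in the shallow library and a median of 50.9 CPM at mid-day (log2 0.44, and 0.34 without that library). CDKN3, a CDK-binding phosphatase (log2 0.50 ± 0.06), CKS2, a CDK subunit (0.35 ± 0.05), AURKA, the centrosomal Aurora kinase (0.48 ± 0.09), BORA, its activator (0.44 ± 0.09), CDC25C (0.48 ± 0.12) and CCNF (0.49 ± 0.10) rose too. CDK1 itself did not pass, with 148 to 249 CPM at mid-day (median 207) and 112 to 245 CPM at the edges (median 169), which overlap widely (log2 0.28 ± 0.16, limma adjusted p = 0.477). WEE1 (0.05 ± 0.09), PKMYT1 (0.11 ± 0.14), kinases that hold CDK1 off, and MASTL (0.02 ± 0.14) were near 0.

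Of 7 genes for securin, separase and the activators and partners of the APC/C, 4 rose (median 0.45). CDC20 ran from 225 to 276 CPM at mid-day (median 243) and from 142 to 204 CPM at the edges (median 168), with no overlap, and rose 1.47-fold (log2 0.55 ± 0.07, limma adjusted p = 0.0003). The E2 enzyme UBE2S, which has near-identical copies that can share reads, rose by 0.45 ± 0.07, and FZR1, the late mitotic activator, by 0.26 ± 0.06. The E2 enzyme UBE2C (0.42 ± 0.12, adjusted p = 0.0909) and separase, ESPL1 (0.51 ± 0.15, adjusted p = 0.104), did not pass in limma, nor did the APC/C inhibitor FBXO5 (0.10 ± 0.13). The APC/C itself was flat: 0 of its 13 core subunits passed and their median was 0.03.

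Of 26 kinesins and spindle proteins, 15 rose and the median was 0.39. KIF20A, a kinesin of the central spindle, ran from 109 to 136 CPM (median 122) against 65.0 to 103 CPM (median 74.6), with no overlap, and rose 1.60-fold (log2 0.68 ± 0.08, limma adjusted p = 0.000107). DLGAP5, which bundles spindle microtubules, was at 197 to 234 CPM (median 208) against 112 to 182 CPM (median 140) and rose by 0.58 ± 0.09 (limma adjusted p = 0.00258). Others that rose include SPAG5 (0.52 ± 0.10), PSRC1 (0.48 ± 0.09), KIF2C (0.47 ± 0.10), NUSAP1 (0.45 ± 0.10) and TPX2 (0.41 ± 0.10), all proteins of spindle assembly. The motor KIF11 (0.28 ± 0.12, adjusted p = 0.306) did not pass in limma. The list had 7 rises without the shallow library, 6 without CT08, 2 without CT12 and 9 with edgeR.

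Cytokinesis and chromosomal passenger genes had 3 rises of 9 (median 0.36). BIRC5 (survivin) ran from 88.3 to 101 CPM against 60.4 to 82.3 CPM, with no overlap, and rose 1.30-fold (limma adjusted p = 0.000868). CEP55 and CIT rose by 0.45 and 0.49, and their calls ended without the shallow library (adjusted p = 0.0854 and 0.077 in limma). Condensin and mitotic chromosome genes had 1 rise of 10 (median 0.26): NCAPD2, with 255 to 314 CPM at mid-day and 205 to 261 CPM at the edges (1.28-fold, limma adjusted p = 0.000868). TOP2A (0.38 ± 0.12) and the proliferation marker MKI67 (0.39 ± 0.14) did not pass. Of 27 kinetochore and checkpoint genes, 3 rose (CENPE, CENPF and SPC24, by 0.44, 0.38 and 0.46; median of the list 0.23), and none of them did without the shallow library or with edgeR, where 0 of 27 passed. BUB1 (0.44 ± 0.12, adjusted p = 0.0587) and CENPA (0.51 ± 0.13, adjusted p = 0.0512) came close in limma.

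**Figure D2:**
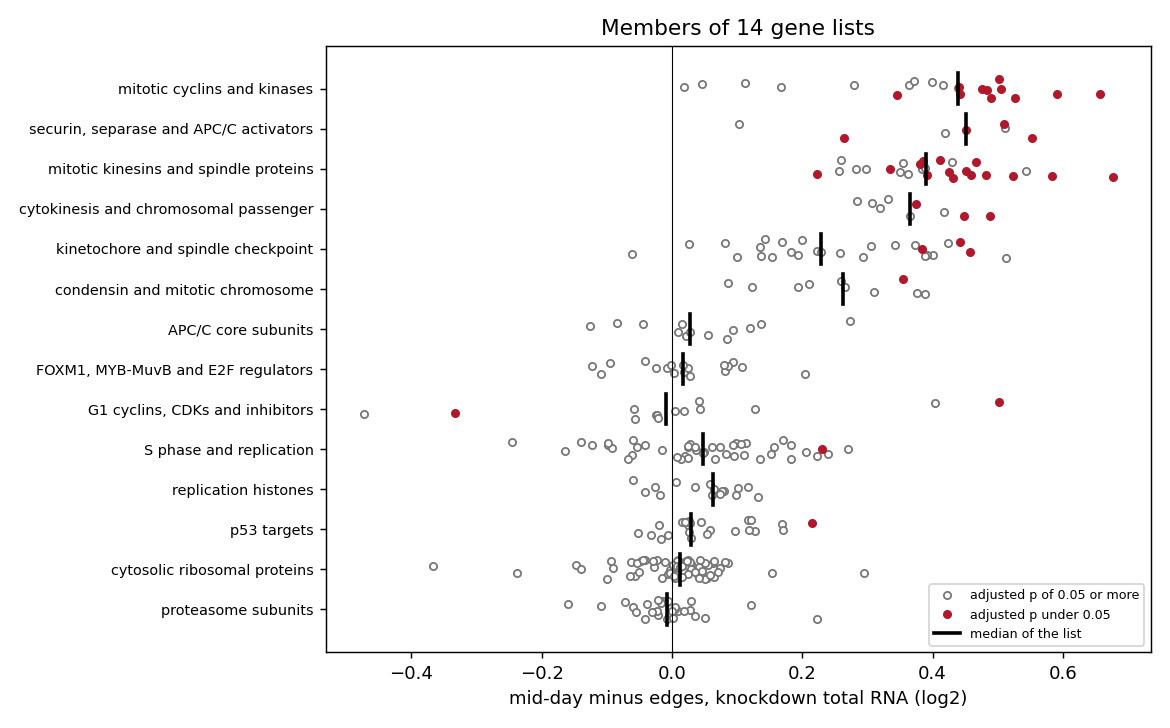
Mid-day minus edges in knockdown total RNA (log2) for each tested member of 14 gene lists, filled where the adjusted p of limma was under 0.05, with a black bar at the list's median. The 6 mitotic lists at the top have medians of 0.23 to 0.45, and the lists under them lie between -0.01 and 0.06.

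The early and late edges differed for these lists. Against CT20 and CT22 alone the median of the 100 mitotic genes was 0.65, and against CT00 and CT02 alone it was 0.07. Both figures share the mid-day libraries. The difference from the early edge went down from securin, separase and the APC/C activators (0.34) through cyclins and kinases (0.18), kinesins (0.14) and cytokinesis (0.07) to kinetochore (-0.05) and condensin genes (-0.06). It was lower still for S phase and replication (-0.30) and for replication histones (-0.42). Against the late edge all 8 lists were positive, between 0.38 and 0.70. CDK1 shows this with 229 CPM at CT00 and CT02, 204 CPM at mid-day and 121 CPM at CT20 and CT22. SUN2, with 41.9, 70.3 and 44.5 CPM, is nearly symmetric.

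By time, relative to each gene's mean in knockdown cells, S phase genes were highest at CT02 (0.34, log2) and histones at CT04 (0.56), and the mitotic lists were highest at CT06 (0.32 for cyclins and kinases, 0.35 for kinetochore genes). Securin, separase and the APC/C activators were at 0.21 at CT06, 0.20 at CT08, 0.07 at CT10, 0.21 at CT12 and 0.18 at CT14. All of these lists were lowest at CT22. The span from the highest to the lowest time was 0.86 for cyclins and kinases, 0.76 for S phase genes and 1.21 for histones. In wild-type cells the same spans were 0.33, 0.35 and 0.29.

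**Figure D3:**
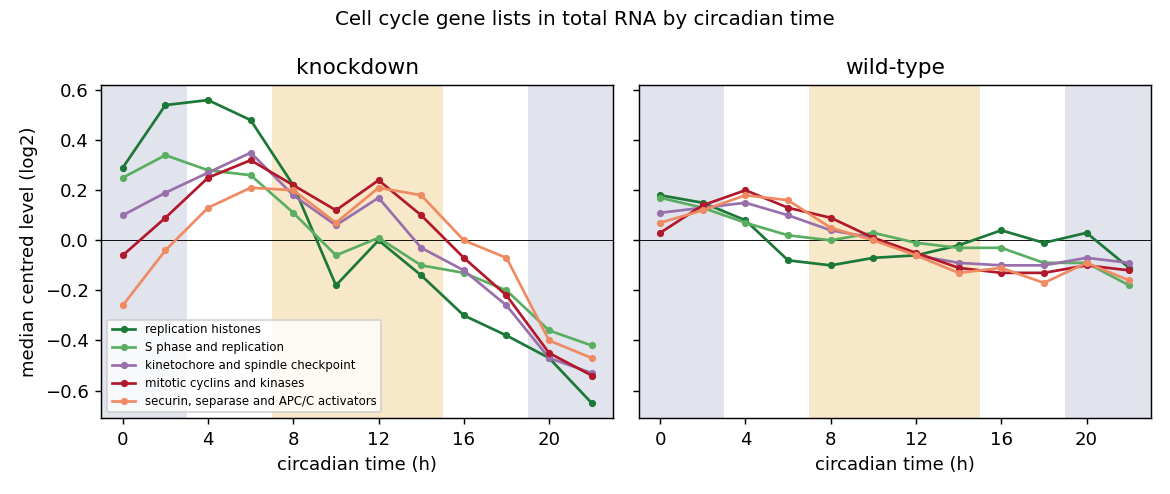
Median level of 5 cell cycle gene lists at each circadian time (h), each gene centred on its own mean (log2), in knockdown and wild-type total RNA, with the mid-day window in orange and the edges in grey. In knockdown cells histones and S phase genes are highest at CT02 to CT04. The mitotic lists are highest at CT06, with securin, separase and the APC/C activators as high at CT12. All 5 lists reach their lowest value at CT22 in knockdown cells.

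Among genes that act upstream of the mitotic programme or earlier in the cell cycle, few passed. Of 18 regulators of the FOXM1, MuvB and E2F families 0 passed (median 0.02). FOXM1 ran from 159 to 259 CPM at mid-day, with 259 CPM in the shallow library and a median of 170, against 126 to 184 CPM at the edges (median 159), or 0.20 ± 0.10 (limma adjusted p = 0.395). Among 14 G1 cyclins, CDKs and inhibitors, 1 rose and 1 fell. CDKN2D, a CDK inhibitor, rose from 6.28 to 10.8 CPM at the edges (median 8.79) to 10.1 to 14.8 CPM (median 12.3; log2 0.50 ± 0.10, limma adjusted p = 0.013). CDK6, its target kinase, fell. Of 45 S phase genes only the ligase LIG1 passed (0.23 ± 0.05, limma adjusted p = 0.0345; list median 0.05). Of 16 tested replication histones 0 passed (median 0.06). Histone values are uncertain, since near-identical genes share reads.

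Other large rises lay outside the lists. SUN2, part of the bridge between nucleus and cytoskeleton, ran from 57.0 to 80.3 CPM (median 71.9) against 37.5 to 48.9 CPM (median 42.6), with no overlap, and rose 1.63-fold (log2 0.70 ± 0.07, limma adjusted p = 2e-05). SAPCD2, which orients the spindle, was at 61.3 to 92.3 CPM against 40.0 to 54.7 and rose 1.60-fold (limma adjusted p = 0.000232). FAM64A, a chromatin protein of proliferating cells, was at 63.5 to 76.4 CPM against 35.9 to 56.6 and rose 1.54-fold (limma adjusted p = 0.000107). TNFAIP8L1 was at 41.0 to 50.4 CPM against 27.1 to 35.6 and rose 1.51-fold (limma adjusted p = 2e-05). In all 4 the groups did not overlap. The helicase PIF1 (0.60 ± 0.11) and MXD3, a partner of MAX (0.60 ± 0.15), rose with overlapping groups, and MXD3 ended at an adjusted p of 0.0795 in limma without the shallow library.

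The 4 largest rises among the named genes were in weakly expressed ones. IFIT1, an interferon-induced RNA-binding protein, was at 3.37 to 5.45 CPM against 1.83 to 4.26 CPM and rose 1.91-fold (limma adjusted p = 0.00391). METTL7A, a methyltransferase-like protein of lipid droplets, was at 2.33 to 5.29 CPM against 1.22 to 3.99 CPM and rose 2.00-fold (limma adjusted p = 0.0316, and 0.0544 without the shallow library). SHISA3, a Wnt antagonist, was at 1.86 to 5.61 CPM against 1.35 to 2.15 CPM, with its highest value in the shallow library. It rose by 0.87 ± 0.17 on the log2 scale (0.75 without that library). FOS, the immediate early factor, was at 4.49 to 14.6 CPM (median 7.12) against 2.85 to 5.41 CPM (median 4.04) and rose 1.80-fold (limma adjusted p = 0.0449). The highest of its values was in the CT08 library of replicate 1, and without CT08 the adjusted p was 0.0764. The pseudocount of 0.25 is small beside the reads of these genes and lowers their folds only slightly.

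The following 8 rises were picked after their values were seen and stand for no group. GPSM2, which anchors the spindle to the cortex, was at 148 to 182 CPM against 94.2 to 145 CPM and rose 1.46-fold (limma adjusted p = 0.000868). ARL6IP1, a membrane-shaping protein of the endoplasmic reticulum, was at 326 to 400 CPM against 225 to 295 CPM and rose 1.42-fold (limma adjusted p = 2e-05). CNTRL, a centriole protein (0.50 ± 0.07), ODF2, of centriolar appendages (0.30 ± 0.05), NUMA1, of the spindle poles (0.22 ± 0.05), STMN1, which destabilises microtubules (0.27 ± 0.05), and the importin KPNA2 (0.33 ± 0.07) rose too. The E3 ligase gene NEURL1B rose by 0.57 ± 0.07.

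CHR and CCAAT letters were more frequent in the promoters of the rises than in promoters at large. In the 150 bases before the start, the CHR motif was present in 22 of 103 matched promoters of the rises (21.4%), in 1.43% of those of the falls and in 4.01% of 10507 tested genes. Over all 27305 promoters of the table it was 7.44%. For CCAAT the shares were 60.2%, 22.9%, 27.0% and 24.4%, and for at least 2 CCAAT matches 32%, 5.71%, 8.40% and 6.29%. In the 6 mitotic lists 37.2% of 86 matched promoters held CHR and 66.3% CCAAT. A spacing of 31 to 33 bases between neighbouring CCAAT boxes, chosen after the sequences of CCNB1 and CCNB2 were seen, occurred in 8 promoters of the rises (7.77%), in 0 of 70 of the falls and in 1.11% of tested genes. CCNB1 and CCNB2 are themselves among these 8, so that share is partly set by the choice. All of these shares are descriptions, with no test.

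Of the 86 genes that fell, 0 belong to the mitotic lists. Those lists hold 100 of the 13096 tested genes, so by share alone few falls would lie in them. DOCK4, an exchange factor for Rac and Rap, ran from 31.2 to 42.0 CPM at mid-day (median 36.8) and from 40.4 to 64.2 CPM at the edges (median 53.1), and 7 of the 8 mid-day libraries lay under every edge library. It fell by 0.54 ± 0.09 (log2, limma adjusted p = 0.00223), and by 0.54 in each replicate. ITGA2, the collagen-binding integrin alpha 2, was at 103 to 174 CPM (median 115) against 131 to 268 CPM (median 187) and fell by 0.57 ± 0.13 (limma adjusted p = 0.0263, and 0.0743 without the shallow library). Its value of 174 CPM at mid-day came from the CT08 library of replicate 1. ARHGAP18, which turns off RhoA, was at 24.0 to 31.4 CPM (median 25.6) against 28.8 to 41.6 CPM (median 38.1) and fell by 0.48 ± 0.07 (limma adjusted p = 0.00108). CDK6, the G1 kinase, was at 697 to 831 CPM (median 784) against 814 to 1102 CPM (median 1003) and fell by 0.33 ± 0.05 (limma adjusted p = 0.00269).

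The largest fall was in ARHGAP22, a Rac-inactivating protein, from 10.1 to 29.4 CPM at the edges (median 20.4) to 7.85 to 12.8 CPM (median 10.2; log2 -0.96 ± 0.17, limma adjusted p = 0.00446). The ephrin receptor EPHB1 fell by 0.78 ± 0.18 at 1.10 to 3.61 CPM, TMEM154 by 0.56 ± 0.11, the semaphorin receptor PLXNA2 by 0.49 ± 0.09, desmoplakin (DSP) by 0.48 ± 0.10 and the necroptosis effector MLKL by 0.48 ± 0.10. SCG5, a secretory chaperone (-0.52), TNFRSF11B, which encodes osteoprotegerin (-0.49), and C16orf74 (-0.48) passed at adjusted p values of 0.0223, 0.0432 and 0.0374 in limma, which became 0.0579, 0.0576 and 0.0559 without the shallow library. Among the falls that belong to one of the 32 lists are CDK6 and the collagen COL6A3 (-0.29 ± 0.07). Picked after their values were seen, CORO1C, which binds actin filaments, fell by 0.28 ± 0.06 and the actin ACTG1 by 0.15 ± 0.04. ACTG1 shares sequence with other actins.

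These falls had high values at CT00 and CT20. DOCK4 averaged 63.9 CPM at CT00, 33.9 at CT12, 33.1 at CT18 and 55.0 at CT20. At CT18 its values were 35.7 CPM in replicate 1 and 30.5 CPM in replicate 2, a library of 2564263 reads. ITGA2 went from 193 CPM at CT00 to 109 at CT14 and 248 at CT20, and CDK6 from 1039 to 739 and 1052 CPM. In wild-type cells DOCK4 was at 10.3 to 14.5 CPM and ITGA2 at 12.4 to 23.7 CPM in the 16 libraries of the windows, under all knockdown libraries. Their wild-type differences were -0.01 ± 0.07 and -0.10 ± 0.12. Of the 86 falls, 83 were tested in wild-type RNA and 68 were negative there, with 0 passing and a median of -0.05. Over all genes tested in wild-type RNA 50.4% were positive.

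**Figure D4:**
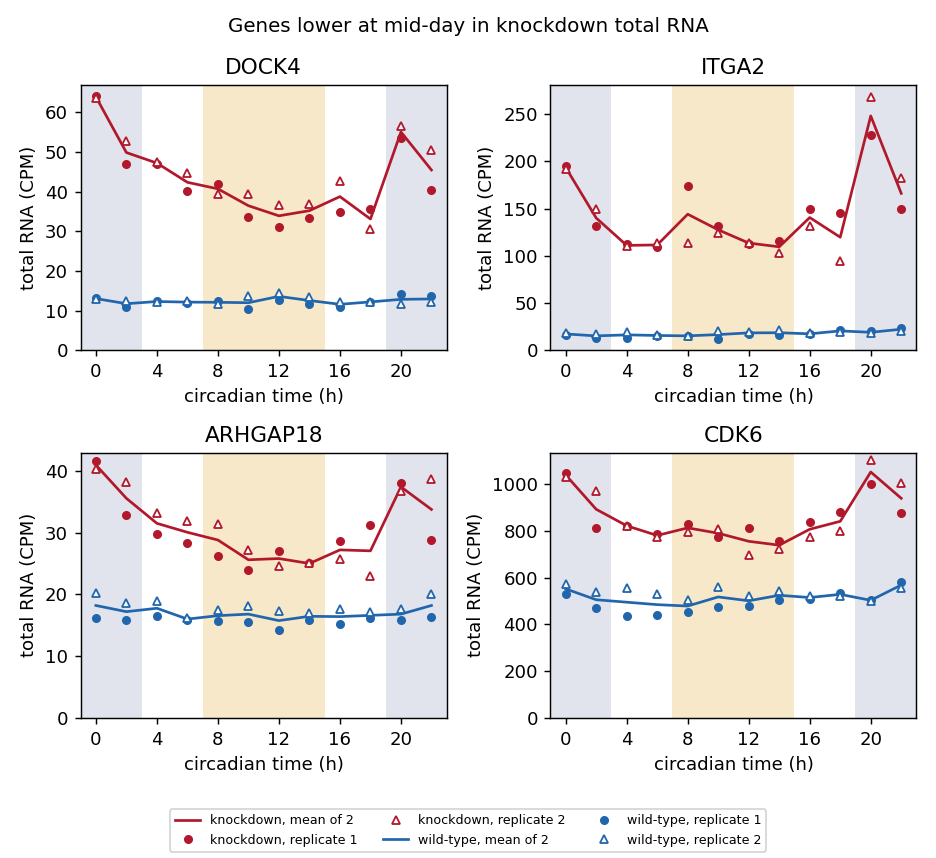
Total RNA (CPM) of DOCK4, ITGA2, ARHGAP18 and CDK6 at each circadian time (h), in knockdown (red) and wild-type cells (blue), with circles for replicate 1, triangles for replicate 2 and lines for their mean. In knockdown cells CT00 and CT20 are the highest times of all 4 genes, and wild-type values lie lower.

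Footprints, the mRNA fragments inside ribosomes, were read in the same windows. They came from libraries of their own with 2599879 to 4116676 reads, made at the same times and numbers as the RNA. Of 11065 tested genes 41 were higher at mid-day (0.371%) and 33 lower (0.298%) in limma, 29 in all without replicate 1 and 0 without replicate 2. CCNB1 ran from 622 to 693 CPM against 349 to 568 CPM and rose 1.46-fold (limma adjusted p = 0.0073). CCNB2 was at 149 to 185 CPM against 88.4 to 149 CPM and rose 1.54-fold (limma adjusted p = 0.00172). PTTG1 was at 191 to 236 CPM against 125 to 184 CPM and rose 1.45-fold (limma adjusted p = 3.09e-05). In all 3 every mid-day library was above every edge library.

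Of 99 mitotic genes tested in footprints 17 rose and 0 fell (median 0.39). Of the 122 genes that rose in RNA, 115 were tested in footprints, 114 had a positive difference and 32 passed (median 0.39). Of the 86 that fell, 83 were tested, 79 were negative and 18 passed (median -0.23), among them DOCK4 (-0.63 ± 0.08), CDK6 (-0.27 ± 0.06), COL6A3 and PLXNA2. Over 11035 genes tested in both, 198 passed in RNA and 74 in footprints, and 50 were shared, which is 25.3% of the first and 67.6% of the second, all with the same sign. Translational efficiency, the footprint difference minus the RNA difference, passed for 0 genes (0%) in limma and 0 in edgeR, with 414 at an unadjusted p under 0.05 in limma. For CCNB1, CCNB2 and PTTG1 it was 0.04 ± 0.12, 0.10 ± 0.12 and 0.03 ± 0.08.

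In wild-type cells few genes passed. Of 13041 tested genes 8 were higher at mid-day (0.0613%) and 2 lower (0.0153%) in limma, and 0 of the 100 mitotic genes passed (median -0.02). Without replicate 1 or without replicate 2, 0 genes passed. CCNB1 ran from 420 to 586 CPM at mid-day and from 406 to 614 CPM at the edges, CCNB2 from 159 to 219 against 144 to 208 and PTTG1 from 256 to 332 against 241 to 322, with overlap in all 3. The differences were 0.08 ± 0.07, 0.09 ± 0.09 and 0.08 ± 0.06. Of the 122 knockdown rises, 121 were tested in wild-type cells and 79 were positive, against 50.4% of all tested genes. Only IFIT1 of the 121 passed (0.64 ± 0.10, limma adjusted p = 0.0124), and their median was 0.02. Mitotic lists were highest at CT04 or CT02 in wild-type cells, outside the mid-day window. In knockdown cells they were highest at CT06, also outside it, but securin, separase and the APC/C activators were equally high at CT12 (0.21, log2).

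The difference between knockdown and wild-type was tested directly, as the interaction of treatment and window over 32 libraries. It was past the threshold for 19 of 13430 genes, 14 with the larger value in knockdown cells (0.104%) and 5 with the smaller (0.0372%). Of the 100 mitotic genes 5 passed, PTTG1 (0.43 ± 0.08, limma adjusted p = 0.00886), CDKN3 (0.41 ± 0.08, 0.00886), CKS2 (0.39 ± 0.08, 0.0333), KIF20A (0.58 ± 0.12, 0.0249) and NEK2 (0.67 ± 0.13, 0.0121), and the median was 0.38. For CCNB1 (0.43 ± 0.11, limma adjusted p = 0.164) and CCNB2 (0.44 ± 0.11, limma adjusted p = 0.154) a difference between the treatments was not shown. SUN2, SAPCD2, FAM64A, TNFAIP8L1, GPSM2, ARL6IP1, NEURL1B and FOS also passed upward, and DOCK4 downward (-0.53 ± 0.11, limma adjusted p = 0.0416). FOS in wild-type cells was at 15.5 and 17.3 CPM in the replicate 2 libraries of CT00 and CT02 and at 4.80 to 11.5 CPM in the other edge libraries. Leaving out replicate 1 left 0 genes and leaving out replicate 2 left 1, so the calls need both replicates. The interaction fit held no replicate block, although wild-type libraries of a replicate number deviated together, and more than 19 genes passed with one.

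The other interactions were clock genes, which passed in wild-type RNA and not in knockdown RNA. PER2 was at 15.1 to 27.7 CPM at mid-day and 5.10 to 11.2 CPM at the edges in wild-type cells, with no overlap (log2 1.16 ± 0.16, limma adjusted p = 0.00458), and at 22.9 to 33.7 against 22.9 to 31.8 CPM in knockdown cells (0.10 ± 0.08). PER3 differed by 0.93 ± 0.12 in wild-type and -0.02 ± 0.08 in knockdown cells, CRY1 by 0.45 ± 0.06 and -0.11 ± 0.04, and CRY2 by 0.59 ± 0.10 and 0.04 ± 0.05. The interactions were -1.05 ± 0.19, -0.94 ± 0.15, -0.56 ± 0.07 and -0.55 ± 0.11 (limma adjusted p = 0.00758, 0.00264, 1.95e-05 and 0.0305), and that of ARNTL was 0.80 ± 0.17 (limma adjusted p = 0.0416). In knockdown total RNA 0 of 8 clock activators and nuclear receptors and 0 of 10 clock repressors and outputs passed.

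**Figure D5:**
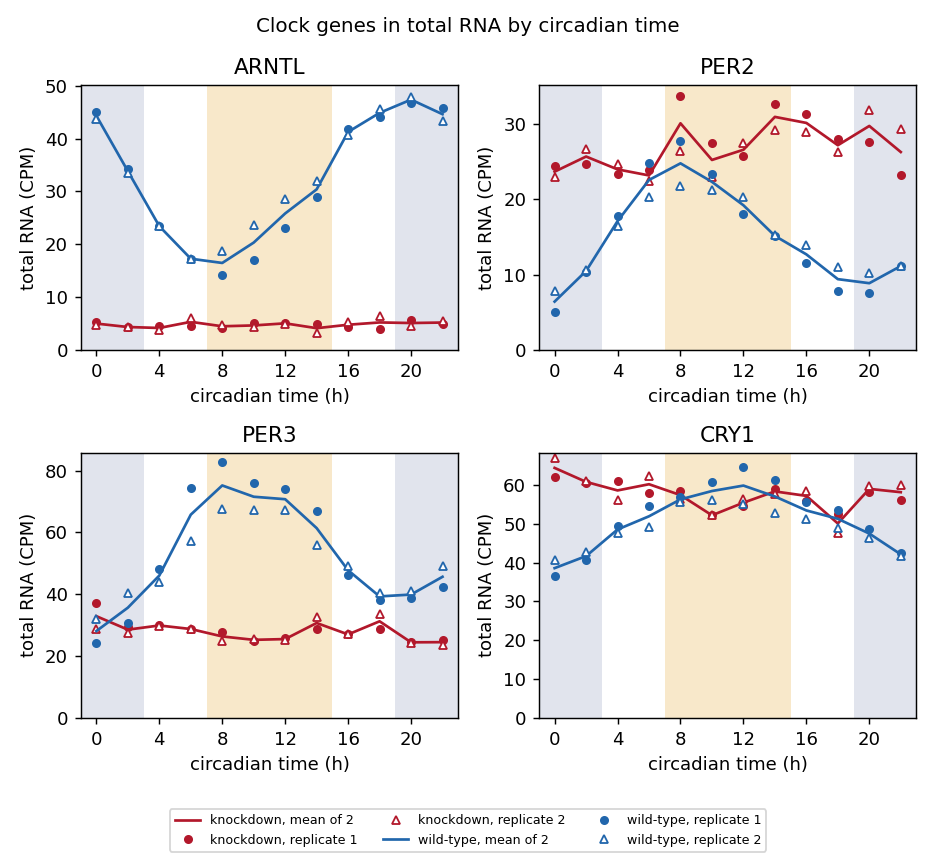
Total RNA (CPM) of ARNTL, PER2, PER3 and CRY1 at each circadian time (h), in knockdown (red) and wild-type cells (blue), with circles for replicate 1, triangles for replicate 2 and lines for their mean. Wild-type PER2, PER3 and CRY1 are higher in the orange mid-day window than at the grey edges and ARNTL is lower there, and the knockdown lines show no such step.

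Other pathway lists are given against 0.932% rises and 0.657% falls among all genes. Of 23 p53 targets the repair gene DDB2 rose (0.21 ± 0.04, limma adjusted p = 0.0219; list median 0.03). Of 15 heat shock genes HSPA1A (0.42 ± 0.06) and HSPA1B (0.29 ± 0.07) rose, 2 near-identical genes whose reads cannot be fully separated. Of 13 tubulins TUBB4B rose (0.36 ± 0.08). FOS was the only one of 16 immediate early genes to pass and IFIT1 of 20 interferon-stimulated genes. Of 17 matrix and osteoblast genes COL6A3 fell. No member passed among 63 cytosolic ribosomal proteins (median 0.01), 31 proteasome subunits (median -0.01), 14 glucocorticoid-induced genes (median 0.01), 26 ATF4 targets, 22 glycolysis genes, 17 endoplasmic reticulum chaperones, 15 inflammatory genes or 14 SR splicing factors. The strand setting of the authors' counting is not stated, so values of genes with an antisense partner are uncertain.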

How the data were processed

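Total RNA and ribosome footprint libraries of U2-OS cells were deposited as 1 value per gene and library. Per the submitters' processing notes, the tools were STAR 2.3.0e, HTSeq 0.5.4p1 and DESeq2 (version not given), with GRCh37 (hg19). The deposited values are a normalised signal, which the authors made by dividing counts by 1 factor per library. Within 0.001 read, 100% of the values are whole multiples of the smallest positive value in their library, taken as 1 read. Whole reads were therefore recovered for 72 of the 96 libraries, and 24 wild-type footprint libraries were not used. Since the deposited values are normalised, limma-trend was the test, and edgeR on the recovered reads was an alternative. Genes the rule did not name are said to be picked after their values were seen.

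TMM factors (edgeR 4.0.16) were computed per assay on the recovered reads, which were filtered with filterByExpr (minimum count 10), and tested as log2 CPM (pseudocount 0.25) in limma 3.58.1 with robust empirical Bayes (R 4.3.3). P-values were adjusted by Benjamini-Hochberg over all tested genes, threshold 0.05, and every adjusted p is from limma unless named otherwise. Each window was 1 group, so the spread includes differences between its times. The fits were tested on simulated data. Replicate numbers did not pair knockdown libraries, while wild-type RNA libraries of a number deviated together at 28 of 28 pairs of times (correlation 0.311 to 0.517). With the number as a block 12 wild-type genes passed in place of 10.

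The windows, the 32 gene lists (642 genes) and the tests were chosen with earlier results of these data known. The rule named the 3 markers, ARNTL, all mitotic and clock genes, the 12 genes that rose most and the 12 that fell most among those called (mean log2 CPM of at least 1, same sign in both replicates), and up to 4 members with the lowest p of each other list. Alternatives were DESeq2 1.42.0, edgeR, other scalings, pseudocount 2, no filter, a block, a drift term, 4 time means against 4, the spread within times, narrower windows and leaving out libraries. Promoters were matched by symbol or synonym for 10507 of 13096 tested genes. Depth in the windows was 13589361 to 19288020 reads per knockdown RNA library (2657049 in 1) and 2599879 to 4116676 reads per footprint library. Over all 24 libraries, knockdown RNA libraries held 2564263 to 20066462 reads and footprints up to 4315197. Reads carry no molecular identifiers. A result for 1 gene is not reported here.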

Additional observations from a re-analysis of the deposited data

Results flagged for a closer look

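In 8 of 56 sets of 8 libraries (named genes by window), the end value lay far from its neighbour by Dixon's 95% limit. Chance gives about 1 in 20 for independent sets. These sets share the same libraries and are not independent, so that rate cannot say whether 8 is more than chance gives. Of these 8, 4 were in the CT08 library of replicate 1, each as the highest mid-day value: FOS at 14.6 CPM (next 9.12), ITGA2 at 174 (next 131), SCG5 at 123 (next 96.2) and TNFRSF11B at 13.5 (next 10.2). ARHGAP18 was at 31.4 CPM in the CT08 library of replicate 2 (next 27.2) and MLKL at 12.9 in the CT10 library of replicate 2 (next 10.7). SHISA3 was at 5.61 CPM in the shallow CT14 library (next 3.41). PTTG1 at 187 CPM in the CT02 library of replicate 1 (next 164) was the highest edge value and still under all mid-day values.

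The mid-day difference was unlike in knockdown and wild-type cells for 19 genes by the interaction test (knockdown minus wild-type, log2 ± SE, limma adjusted p under 0.05). Of genes that rose in knockdown cells, it was 1.56 ± 0.34 for FOS, 0.67 ± 0.13 for NEK2, 0.65 ± 0.12 for NEURL1B, 0.62 ± 0.11 for FAM64A, 0.60 ± 0.11 for SUN2, 0.58 ± 0.12 for KIF20A and 0.57 ± 0.11 for SAPCD2. It was 0.54 ± 0.10 for GPSM2, 0.51 ± 0.10 for TNFAIP8L1, 0.48 ± 0.09 for ARL6IP1, 0.43 ± 0.08 for PTTG1, 0.41 ± 0.08 for CDKN3 and 0.39 ± 0.08 for CKS2. DOCK4, which fell, was at -0.53 ± 0.11. Clock genes were at -1.05 ± 0.19 (PER2), -0.94 ± 0.15 (PER3), -0.56 ± 0.07 (CRY1), -0.55 ± 0.11 (CRY2) and 0.80 ± 0.17 (ARNTL).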

How the results depend on the processing

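The 3 markers and the 12 largest rises and 12 largest falls, 27 genes, reversed under none of 22 settings run on knockdown RNA. The largest rises and falls were chosen with the same sign in both replicates, so leaving out a replicate could not reverse them. The other settings use the same libraries again, so the lack of reversals is no independent support. Other named genes were not run under all 22 settings. The 208 calls there became 413 with DESeq2, 132 with no low-count filter, 644 with a linear drift term, 893 with the spread taken between replicates of a time only, 5 with 4 time means against 4 and 65 with narrow windows (CT10 and CT12 against CT00 and CT22). They were 206 or 207 with edgeR, median-ratio scaling, the deposited scaling or pseudocount 2. Leaving out 1 time, which makes the mean times of the groups unequal, gave 37 (CT12) to 369 (CT02), and leaving out a replicate 2 to 12. The cause of these shifts was not tested. Leaving out a replicate gave 0 to 29 calls in footprints (74), 0 in wild-type RNA (10), 0 to 1 in the interaction (19) and 0 in translational efficiency (0). Replicate numbers shared no deviation in knockdown RNA (2 of 28 pairs of times above 0.1, correlation -0.117 to 0.202) or footprints (2 of 28). With the number as a replicate block, 168 genes passed in knockdown RNA, 71 in footprints and 25 in the interaction. Of 27 named genes that passed, 26 kept the call with edgeR, 21 without the shallow library, 7 without replicate 1 and 1 without replicate 2. Depth limits weakly expressed genes: METTL7A had 14 to 92 reads per library and FOS 12 to 204.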

Other observations

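Footprints passed the threshold for 24 genes that did not pass in RNA. The tight junction gene CLDN4 was higher at mid-day in footprints (log2 0.72 ± 0.17, limma adjusted p = 0.0441) and at 0.68 ± 0.18 in RNA (0.0651). The amino acid transporter subunit SLC3A2 was lower by 0.28 (log2 -0.28 ± 0.07, limma adjusted p = 0.0441) and at -0.19 ± 0.07 in RNA (0.203). No difference between the assays passed, so these are not shown to be particular to footprints.

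Inflammatory cytokine and NF-kB genes (15 tested, 0 passed) had a list median of 0.44 (log2, relative to each gene's mean) at CT08, 0.00 at CT10 and 0.35 at CT16 in knockdown RNA, and between -0.32 and -0.22 from CT00 to CT06. CSF2, the cytokine GM-CSF, ran from 2.02 to 32.7 CPM at mid-day with a median of 3.42 CPM, and the 32.7 came from the CT08 library of replicate 1. IER3, an immediate early gene, ran from 107 to 219 CPM with a median of 121, and was highest in the same library. Whether that library sets the list's CT08 value was not tested. Among cyclin genes of G1 and S phase, CCNE2 was at 26.8 CPM at CT00 and CT02, 14.5 CPM at mid-day and 14.8 CPM at CT20 and CT22 (-0.47 ± 0.17 for mid-day against both, limma adjusted p = 0.196).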
